A study of Mus musculus with 6 samples.

Results

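Motile cilium and axoneme genes were examined in RNA sequencing data from sorted medullary thymic epithelial cells (mTECs) of control and Jmjd3-deficient mice. The members were taken by name: radial spoke (Rsph), tektin (Tekt) and axonemal dynein heavy chain (Dnah) symbols followed by a digit, and 15 single names from Foxj1 to Qrich2. Of the 20443 genes in the tables, 25 were members, 6 of them Rsph genes and 5 Tekt genes. The Dnah pattern matched 0 genes, because the tables spell these genes in the older form Dnahc, and Mcidas was listed under its older symbol Mcin. The 11 Dnahc genes and Mcin are therefore described beside the members and are not counted among them. All mice were of the C57BL/6 strain and 4 weeks old, and both groups carried floxed Jmjd3 alleles (Jmjd3fl/fl). The 3 controls (Con_253, Con_261 and Con_264) had no Cre, and the 3 deficient mice (cKO_262, cKO_263 and cKO_265) also carried Foxn1-cre, which acts in the thymic epithelium as a whole. Cre and the loss of Jmjd3, a histone demethylase encoded by Kdm6b, cannot be told apart in this design.

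A motile cilium beats by sliding its microtubule doublets against each other. Outer and inner dynein arms pull on the neighbouring doublet, radial spokes and a central pair of microtubules pattern the beat, and tektins lie inside the doublet wall. Foxj1, Mcidas and the RFX factors switch these genes on in cells that grow motile cilia, such as those of the airway and oviduct, and sperm tails use many of the same parts. A small share of mTECs is known to take on features of peripheral ciliated cells.

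The deposited values are FPKM, which are scaled to transcript length, so levels can be compared between genes. Read numbers are not in the tables, so the depth is unknown. The summed FPKM of a library was 461152 to 543156 in the controls and 582835 to 641060 in the deficient mice. On the first principal component of the tested genes (42.8% of the variance) cKO_265 lay at 53.02, against -22.7 to 7.42 for the other libraries. Con_253 was the only library with more than traces of Y-linked transcripts (Eif2s3y at 7.88 FPKM, against at most 0.0409 in each of the others). Ddx3y, Uty and Kdm5d showed the same, at 2.22, 1.28 and 1.18 FPKM in Con_253. By these transcripts Con_253 was the only male library, so sex was not balanced between the groups. For several members and lists, values without cKO_265 or Con_253 are given below. The mTEC identity of the sort was plain in both groups: Aire stood at 230 to 399 FPKM and 317 to 504 FPKM, and Epcam at 751 to 887 FPKM and 813 to 945 FPKM. Of the 10 mTEC markers 0 passed (limma), and 1 had an unadjusted p under 0.05, Cd40, a receptor of mTEC growth signals, at 137 to 151 FPKM across the controls, against 189 to 193 across the deficient mice (log2 fold change 0.43 with an adjusted p of 0.19 in limma). The targeted gene Kdm6b measured 18.1, 17.1 and 9.998 FPKM across the controls, against 11.1, 11.6 and 8.67 across the deficient mice, and the groups overlapped (log2 fold change -0.45 with an SE of 0.23 and an adjusted p of 0.418 in limma). The value covers the whole gene, so it does not check a deletion of a part of it.

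Cilium genes were expressed at levels near that of the median gene. The median member had a mean of 2.96 FPKM over the 6 libraries, against 3.58 FPKM for the median gene of the tables, and 19 of the 25 members reached a mean of 1 FPKM, as did 14090 of all 20443 genes. The member with the highest mean was Rsph1, at 10.01 FPKM, and the lowest was Spag17, at 0.347 FPKM. The summed FPKM of the members was 104, 118 and 111 across Con_253, Con_261 and Con_264, against 88.4, 95.1 and 74.1 across cKO_262, cKO_263 and cKO_265, an order kept for both groups below. Every deficient library thus had a lower sum than every control. The mean sum of all members was 111 ± 7.22 FPKM over the controls and 85.9 ± 10.7 FPKM over the deficient libraries (SD, n = 3 each). Part of this difference lay in Spag8, Nme9, Stk33 and Qrich2. Without these genes the sums were 77.2, 86.8 and 80.2 FPKM across the controls, against 70.3, 74.2 and 57.1 across the deficient mice. In a bulk library, fewer ciliated cells and less cilium RNA per cell cannot be told apart, and neither was tested. The scaling between libraries is also not given in the sources used here.

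By gene, 1 member, Spag8, fell in the deficient mice and 0 rose (limma on log2(FPKM + 1), adjusted p under 0.05), where 0.0573% of all tested genes fell and 0.0191% rose. The test took in the 15720 genes whose mean reached 0.5 FPKM, of which 12 (0.0763%) passed, and 23 of the 25 members. Hydin and Spag17 lay under that mean and were not tested, and Rsph6a, at 0.640 FPKM, was the tested member nearest to it. At an unadjusted p under 0.05, 6 of the 23 tested members were lower and 1 was higher, where 7.82% and 6.81% of all tested genes were. Controls and deficient libraries were fully separate for 6 members with lower values and 1 with higher values, where the shares over all tested genes were 11.9% and 9.59%. The median log2 fold change (Jmjd3-deficient minus control) of the tested members was -0.31, beside -0.04 for all tested genes. Values were lower in the deficient mice for 18 of the 23 tested members, and for 54.7% of all tested genes. These counts describe the list and are not a test of it. Spag8 and Qrich2 were known from earlier results of these data when the list was drawn up. Without them, 5 of 21 tested members had an unadjusted p under 0.05 and lower values, and 0 had one with higher values. Without Nme9 and Stk33 as well, 3 of 19 (15.8%) were lower and 0 higher at that threshold. In this smaller set 3 (15.8%) had fully separate, lower values, 15 had a log2 fold change below 0, and the median was -0.30.

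The libraries did not carry this evenly. Of the 25 members, 15 were below all 3 controls in cKO_265, 14 in cKO_262 and 11 in cKO_263. The lowest value of the 6 libraries was in cKO_265 for 10 members, in cKO_262 for 6, in cKO_263 for 4 and in the controls for 5. Such counts were not made over all genes, so they cannot be called particular to the members. Among all tested genes cKO_265 also lay apart, on the first principal component. Set against the control mean, the median of the tested members was -0.39, -0.19 and -0.51 on the log2 scale in cKO_262, cKO_263 and cKO_265. It was -0.13, 0.03 and 0.02 in Con_253, Con_261 and Con_264. The same median over all tested genes was -0.02, -0.03 and -0.06 in cKO_262, cKO_263 and cKO_265. Without cKO_265 the median log2 fold change of the members was -0.27, and without Con_253 it was -0.44.

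**Figure D1:**
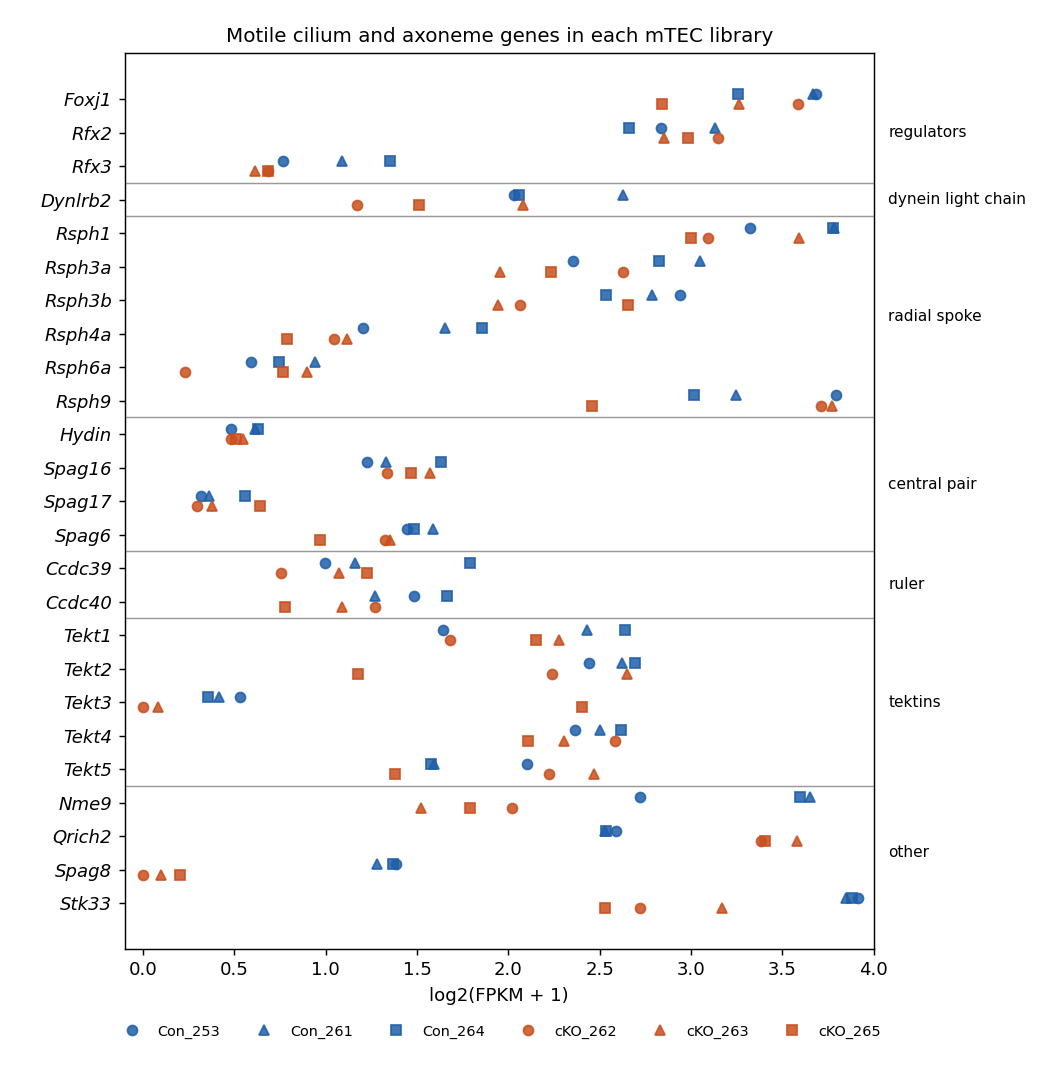
Level of each of the 25 members in each library, as log2(FPKM + 1), grouped by role; blue symbols are the 3 control and orange symbols the 3 Jmjd3-deficient libraries. The groups do not overlap in 7 members (Spag8, Nme9, Stk33, Qrich2, Rfx3, Rsph4a and Spag6), while in most members blue and orange points overlap, and the single high orange square of Tekt3 is cKO_265 at 4.29 FPKM.

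The members farthest apart between the groups were Spag8, Nme9, Stk33 and Qrich2, which were grouped here as other cilium and flagellum genes. Spag8 encodes a sperm-associated protein of the doublet microtubules of cilia and flagella (chromosome 4, 43651335 to 43653594, minus strand, protein coding, GENCODE M21 on mm10). It measured 1.62, 1.43 and 1.58 FPKM across the controls, was listed at 0 for cKO_262, and reached 0.0705 FPKM in cKO_263 and 0.1503 FPKM in cKO_265. All 3 controls were alike, and the deficient libraries lay far below them (log2 fold change -1.25 with an SE of 0.16 and an adjusted p of 0.0474 in limma). The call was close to the threshold: with any 1 control left out the adjusted p lay between 0.201 and 0.251 (limma), and with a pseudocount of 0.1 instead of 1 it was 0.077, with a log2 fold change of -3.34. The group means were 1.54 and 0.0736 FPKM, so the size of the log2 fold change depends on the pseudocount. Without cKO_262 or cKO_263 the adjusted p was 0.0636 or 0.1005, and with Con_253 and cKO_265 both left out it was 0.0891 (limma). With the pseudocount of 1 the log2 fold change lay between -1.30 and -1.20 with libraries left out.

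Nme9, a member of the nucleoside diphosphate kinase family with a thioredoxin domain (chromosome 9, 99451475 to 99474751, plus strand), measured 5.597, 11.6 and 11.1 FPKM across the controls, against 3.06, 1.87 and 2.45 across the deficient mice. Con_253 was the lowest control, and still lay above every deficient library. The log2 fold change of -1.55 with an SE of 0.27 was the farthest from 0 of the tested members and did not pass over all genes (limma adjusted p = 0.107). The tables give Nme9 the same interval as its neighbour Armc8 on the other strand. Armc8 measured 17.4 to 18.1 FPKM across the controls, against 16.97 to 20.8 across the deficient mice (log2 fold change 0.06).

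Stk33, a serine/threonine kinase needed for the sperm tail (chromosome 7, 109279223 to 109439081, minus strand), measured 14.1, 13.4 and 13.7 FPKM across the controls, against 5.59, 8.02 and 4.77 across the deficient mice. The controls were tightly grouped, and each deficient library had a clearly lower value (log2 fold change -1.07 with an SE of 0.19 and an adjusted p of 0.107 in limma).

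Qrich2, a glutamine-rich protein of the sperm flagellum, went the other way. It measured 5.03, 4.77 and 4.79 FPKM across the controls, against 9.44, 10.95 and 9.596 across the deficient mice. Both groups were tight, and no deficient library came near a control. The log2 fold change of 0.90 with an SE of 0.15 did not pass (limma adjusted p = 0.0986). Qrich2 (chromosome 11, 116441325 to 116466241) and Foxj1 (chromosome 11, 116330704 to 116335399) lie on the same strand of mm10 with 105925 bases between them, the closest pair among the members.

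**Figure D2:**
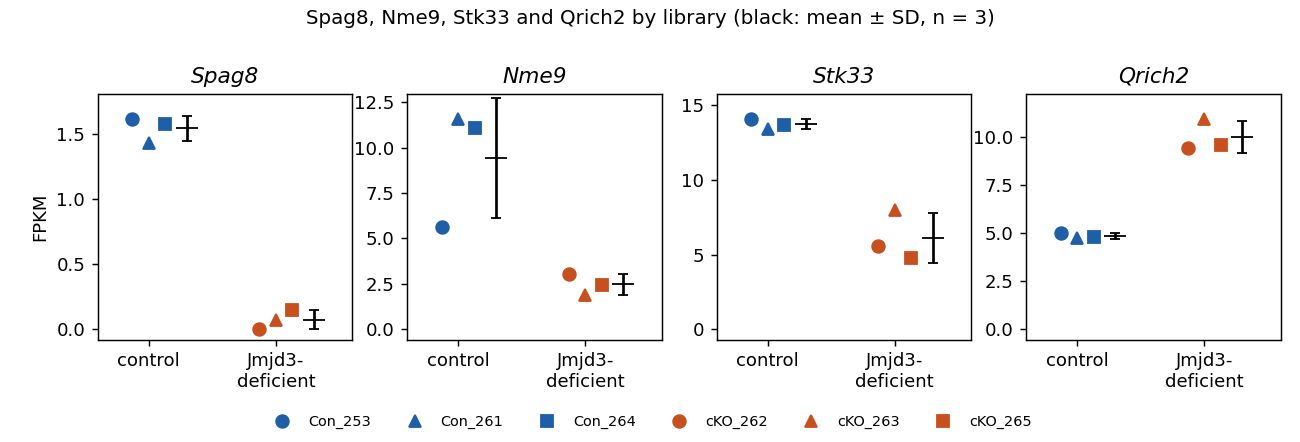
FPKM of Spag8, Nme9, Stk33 and Qrich2 in each library on linear axes that include 0, with the mean ± SD (n = 3) in black. In each panel the 3 control and the 3 Jmjd3-deficient libraries do not overlap; the first 3 genes are lower and Qrich2 is higher in the deficient mice.

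The regulators of the ciliary program showed smaller differences. Foxj1, the forkhead factor that directs motile cilium formation, measured 11.9, 11.7 and 8.55 FPKM across the controls, against 11.02, 8.59 and 6.18 across the deficient mice. The groups overlapped, with Con_264 below cKO_262 and cKO_263 (log2 fold change -0.31 with an SE of 0.22 and an adjusted p of 0.572 in limma). With libraries left out its log2 fold change lay between -0.48 and -0.04, the latter without Con_253 and cKO_265, and it was -0.11 without cKO_265 alone. Rfx3, an RFX factor of cilium genes, measured 0.703, 1.13 and 1.55 FPKM across the controls, against 0.607, 0.531 and 0.609 across the deficient mice. These groups did not overlap, although the gap between Con_253 and cKO_265 was small (log2 fold change -0.41 with an SE of 0.19 and an adjusted p of 0.372 in limma). Rfx2, another such factor, measured 6.13, 7.75 and 5.32 FPKM across the controls, against 7.88, 6.22 and 6.904 across the deficient mice, and its groups overlapped (log2 fold change 0.12). Of its 2 rows in the tables, the lower was at 1.08 FPKM in Con_261 and 1.28 FPKM in cKO_263 and under 0.001 FPKM in each of the other 4 libraries. Mcin, the multicilin gene, measured 10.6, 11.1 and 10.1 FPKM across the controls, against 7.29, 16.3 and 4.504 across the deficient mice. The deficient libraries ranged more widely and on both sides of the controls, with cKO_263 the highest and cKO_265 the lowest library. The log2 fold change of -0.33 was smaller in size than its SE of 0.36 (limma adjusted p = 0.720), so the direction of Mcin is uncertain.

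RFX factors bind the X-box, a pair of facing RFX sites, and Foxj1 binds forkhead sites, so the members' promoters were searched for both. The RefSeq table for GRCm38.p6, the build called mm10, gave windows from 250 bases before to 50 after a start for 20 of the 25 members (23 windows). Foxj1, Rsph1, Rsph4a, Spag6 and Stk33 had no matching window. The RFX core GTTGCC was found, on either strand, in 11 of the 23 member windows (47.8%), which belong to 10 genes. Among all 32851 windows of the table it was found in 12.5%. The forkhead core GTAAACA was in 1 member window (4.3%), that of Tekt3, and in 3.65% of all windows. Exact pairs of GTTGCC facing GGCAAC with 0 to 3 bases between them were in 0 member windows and in 0.161% of all windows. A looser pair, GTTGCC facing GCAAC, was chosen after the sites had been seen. It was in 5 member windows (21.7%) of the 4 genes Dynlrb2, Hydin, Rsph3b and Tekt2, and in 0.295% of all windows. Other imperfect pairs were not searched for, so a window without a match here may still hold an X-box. Overlapping windows of Tekt2 hold the same sites and were counted apart, here and for the RFX core. The motifs overlap, since each pair holds an RFX core, and a match is a description of letters and not a site of binding.

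The 13 RFX cores with 10 bases inside the window on either side are shown because this was the motif most frequent in the member windows. Each is read in the direction of GTTGCC. The core is in capitals. The number in brackets is the distance in bases of the first core base, as the gene reads, from the RefSeq start, negative before it, and positions are in GRCm38.p6.
Dynlrb2 (-51, chr8:116504954-116504979, plus strand): ttcctgcctgGTTGCCtagcaacggg
Hydin (-13, chr8:110266954-110266979, minus strand): gttaccatctGTTGCCacagcaaccg
Rfx2 (-116, chr17:56831109-56831134, minus strand): cttggtaaccGTTGCCgggcgcaacg
Rfx3 (31, chr19:28011120-28011145, minus strand): tatagcaaccGTTGCCttgtgaatca
Rsph3b (16, chr17:6948325-6948350, plus strand): gcccccatcgGTTGCCgagcaacccg
Spag16 (-111, chr1:69826849-69826874, minus strand): acggcaacgcGTTGCCtagttacccc
Spag16 (-103, chr1:69826857-69826882, plus strand): taggcaacgcGTTGCCgtagtaactg
Spag8 (27, chr4:43653552-43653577, plus strand): cacctcccggGTTGCCatagagacgg
Tekt1 (-15, chr11:72361882-72361907, minus strand): cgtccgtccgGTTGCCatagagaccg
Tekt1 (-35, chr11:72361902-72361927, plus strand): cggacgcaacGTTGCCctagttagaa
Tekt2 (-22, chr4:126325695-126325720, plus strand): tgcggctctgGTTGCCgagcaaccgc
Tekt2 (-96, chr4:126325769-126325794, minus strand): cagctgcgcgGTTGCCtggctaagct
Tekt4 (8, chr17:25471588-25471613, minus strand): aaggttcctgGTTGCCtaaggaacat
The last bases of the Dynlrb2, Hydin, Rsph3b and Tekt2 (-22) sites hold the facing GCAAC.

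Of the 4 genes farthest apart, Spag8 had 1 RFX core, 27 bases after its start, Nme9 and Qrich2 had none in these windows, and Stk33 had no window. The 3 windows are shown whole, 5′ to 3′ along the gene, with the RFX core (here on the opposite strand, as GGCAAC) in capitals. They are chr4:43653545-43653844 for Spag8 and chr11:116454298-116454597 for Qrich2, both on the minus strand, and chr9:99455993-99456292 for Nme9 on the plus strand, all in GRCm38.p6. For Qrich2 and Nme9 the GENCODE gene begins farther upstream than the RefSeq start used here.
Spag8: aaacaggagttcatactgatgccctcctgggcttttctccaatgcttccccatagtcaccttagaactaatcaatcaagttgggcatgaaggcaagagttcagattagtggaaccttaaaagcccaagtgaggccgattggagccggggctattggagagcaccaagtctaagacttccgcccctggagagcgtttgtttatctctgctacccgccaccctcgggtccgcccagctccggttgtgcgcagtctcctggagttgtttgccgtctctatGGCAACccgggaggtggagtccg
Qrich2: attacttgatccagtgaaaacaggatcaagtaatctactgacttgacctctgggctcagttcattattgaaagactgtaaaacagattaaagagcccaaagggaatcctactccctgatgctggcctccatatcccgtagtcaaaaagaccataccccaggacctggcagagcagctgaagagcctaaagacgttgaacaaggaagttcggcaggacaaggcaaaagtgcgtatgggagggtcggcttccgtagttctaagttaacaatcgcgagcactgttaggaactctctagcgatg
Nme9: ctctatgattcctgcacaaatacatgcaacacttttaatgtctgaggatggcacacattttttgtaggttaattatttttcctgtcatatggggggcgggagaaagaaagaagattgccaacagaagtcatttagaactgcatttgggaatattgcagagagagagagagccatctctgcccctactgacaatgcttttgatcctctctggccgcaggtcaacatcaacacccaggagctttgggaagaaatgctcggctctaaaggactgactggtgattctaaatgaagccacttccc

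Among the dynein genes the only member was Dynlrb2, a light chain of the roadblock class that is abundant in ciliated cells. It measured 3.08, 5.18 and 3.17 FPKM across the controls, against 1.25, 3.22 and 1.85 across the deficient mice. The groups overlapped through cKO_263, which lay above Con_253 and Con_264 (log2 fold change -0.65 with an SE of 0.27 and an adjusted p of 0.321 in limma). Its paralog Dynlrb1, a light chain of cytoplasmic dynein, was far more abundant, at 546 to 579 FPKM across the controls, against 643 to 916 across the deficient mice (log2 fold change 0.46 with an SE of 0.16 and an adjusted p of 0.251 in limma).

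The axonemal dynein heavy chains, the motors themselves, were low throughout. Of the 11 found under Dnahc symbols, 9 were tested and 0 passed in limma. Also at an unadjusted p under 0.05 the count was 0, and their median log2 fold change was -0.05, which turned to 0.09 under quantile normalization, 0.03 under median centring and 0.11 with arrayWeights. The outer arm chain Dnahc9 measured 2.95, 2.95 and 4.4 FPKM across the controls, against 2.46, 2.27 and 2.32 across the deficient mice, without overlap (log2 fold change -0.39). Dnahc5, the other main outer arm chain of airway cilia, measured 0.576, 0.584 and 0.916 FPKM across the controls, against 0.373, 0.421 and 0.237 across the deficient mice, again without overlap (log2 fold change -0.33). Dnahc17, an outer arm chain of sperm, had no overlap either (log2 fold change -0.27). These were 3 of the 9 tested heavy chains (33.3%), where 11.9% of all tested genes were lower without overlap. The other tested outer arm chains, Dnahc8 and Dnahc11, overlapped between the groups and had log2 fold changes of 0.11 and 0.04. The adjusted p-values of Dnahc9, Dnahc5 and Dnahc17 lay between 0.3798 and 0.513 (limma). The tested inner arm chains, Dnahc1, Dnahc2, Dnahc6 and Dnahc10, had log2 fold changes from -0.09 to 0.05. Dnahc7a and Dnahc7b, which are close relatives, reached at most 0.631 FPKM in any library and were not tested.

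The radial spoke members had log2 fold changes below 0 in 6 of 6 cases, though Rsph6a and Rsph9 turned in some refits given below, and 0 passed over all genes (limma). Rsph4a, a protein of the spoke head, measured 1.31, 2.14 and 2.62 FPKM across the controls, against 1.06, 1.17 and 0.724 across the deficient mice. The groups did not overlap, and Con_253 was the lowest control (log2 fold change -0.59 with an SE of 0.21 and an adjusted p of 0.259 in limma). Rsph3b, a protein of the spoke stalk, measured 6.68, 5.91 and 4.78 FPKM across the controls, against 3.18, 2.85 and 5.31 across the deficient mice. Here cKO_265 lay within the controls (log2 fold change -0.53 with an SE of 0.23 and an adjusted p of 0.333 in limma). Its relative Rsph3a, 996931 bases away on chromosome 17, measured 4.11 to 7.28 FPKM across the controls, against 2.88 to 5.18 across the deficient mice (log2 fold change -0.47). The pair are close copies, and how shared reads were counted is not given in the sources used here, so both values are uncertain.

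Rsph1, a spoke head protein and the most abundant member, measured 9.02, 12.7 and 12.7 FPKM across the controls, against 7.52, 11.05 and 7.01 across the deficient mice. The groups overlapped through cKO_263 (log2 fold change -0.40 with an SE of 0.21 and an adjusted p of 0.433 in limma). Rsph9, a further spoke head protein, measured 12.9, 8.5 and 7.08 FPKM across the controls, against 12.1, 12.6 and 4.49 across the deficient mice, so that in the deficient mice cKO_265 alone was low. Its log2 fold change of -0.04 had no stable sign and was 0.39 without cKO_265 and 0.18 without Con_253. Rsph9 shares part of its locus with Mrps18a on the other strand. Rsph6a, the spoke gene of sperm, had a mean of 0.701 FPKM over the controls and 0.579 FPKM over the deficient libraries (log2 fold change -0.13). This became 0.07 without cKO_262, -0.21 without Con_253 and -0.20 without cKO_265.

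The central pair and ruler genes were low. Spag6, a central pair protein, measured 1.72, 2.004 and 1.798 FPKM across the controls, against 1.503, 1.55 and 0.954 across the deficient mice, without overlap (log2 fold change -0.29 with an SE of 0.18 and an adjusted p of 0.498 in limma). Without cKO_265 its log2 fold change was -0.17. The gene so named in the tables lies on chromosome 16 from 16753016 to 16829363 and is called Spag6l in GENCODE M21. Spag16, also of the central pair, measured 1.34, 1.51 and 2.103 FPKM across the controls, against 1.52, 1.97 and 1.77 across the deficient mice, with overlapping groups (log2 fold change 0.06). It was summed from 3 rows, and the sign turned when only its highest row was used (-0.01) or without Con_253 (-0.02). Hydin, a very large central pair protein, measured 0.395 to 0.549 FPKM across the controls, against 0.397 to 0.459 across the deficient mice. Spag17, another protein of the central pair, measured 0.244 to 0.474 FPKM across the controls, against 0.225 to 0.557 across the deficient mice. Neither of these genes showed separate groups.

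Ccdc39 and Ccdc40 form the ruler that sets the spacing of dynein arms and spokes along the doublet. Ccdc40 measured 1.799, 1.41 and 2.17 FPKM across the controls, against 1.42, 1.125 and 0.714 across the deficient mice. The groups touched, with Con_261 just below cKO_262 (log2 fold change -0.43 with an SE of 0.20 and an adjusted p of 0.368 in limma). Ccdc39 measured 0.993 to 2.45 FPKM across the controls, against 0.685 to 1.34 across the deficient mice, with clear overlap (log2 fold change -0.30, and -0.46 without Con_253). It overlaps Ttc14 on the other strand, and Ttc14 had a log2 fold change of 0.03.

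The 5 tektin genes showed no shared direction, and 0 passed (limma), also at an unadjusted p under 0.05. Tekt2 measured 4.43, 5.16 and 5.48 FPKM across the controls, against 3.72, 5.29 and 1.26 across the deficient mice, where cKO_265 was by far the lowest (log2 fold change -0.56 with an SE of 0.34 and an adjusted p of 0.489 in limma). Without cKO_265 its log2 fold change was -0.14. Tekt4, the most abundant tektin by its mean over the 6 libraries, measured 4.15, 4.66 and 5.13 FPKM across the controls, against 4.99, 3.93 and 3.31 across the deficient mice, with overlap (log2 fold change -0.16, and -0.05 without cKO_265). Tekt1 measured 2.12 to 5.22 FPKM across the controls, against 2.203 to 3.84 across the deficient mice (log2 fold change -0.20, and -0.50 without Con_253). Tekt5 measured 1.98 to 3.29 FPKM across the controls, against 1.599 to 4.55 across the deficient mice (log2 fold change 0.27, 0.59 without cKO_265 and 0.44 without Con_253). Tekt3 measured 0.443, 0.332 and 0.2796 FPKM across the controls, was listed at 0 for cKO_262, and reached 0.0593 FPKM in cKO_263. In cKO_265 it stood at 4.29 FPKM. That 1 library set the positive sign of its log2 fold change of 0.40 (SE 0.56), and without it Tekt3 lay under the mean needed for the test.

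**Figure D3:**
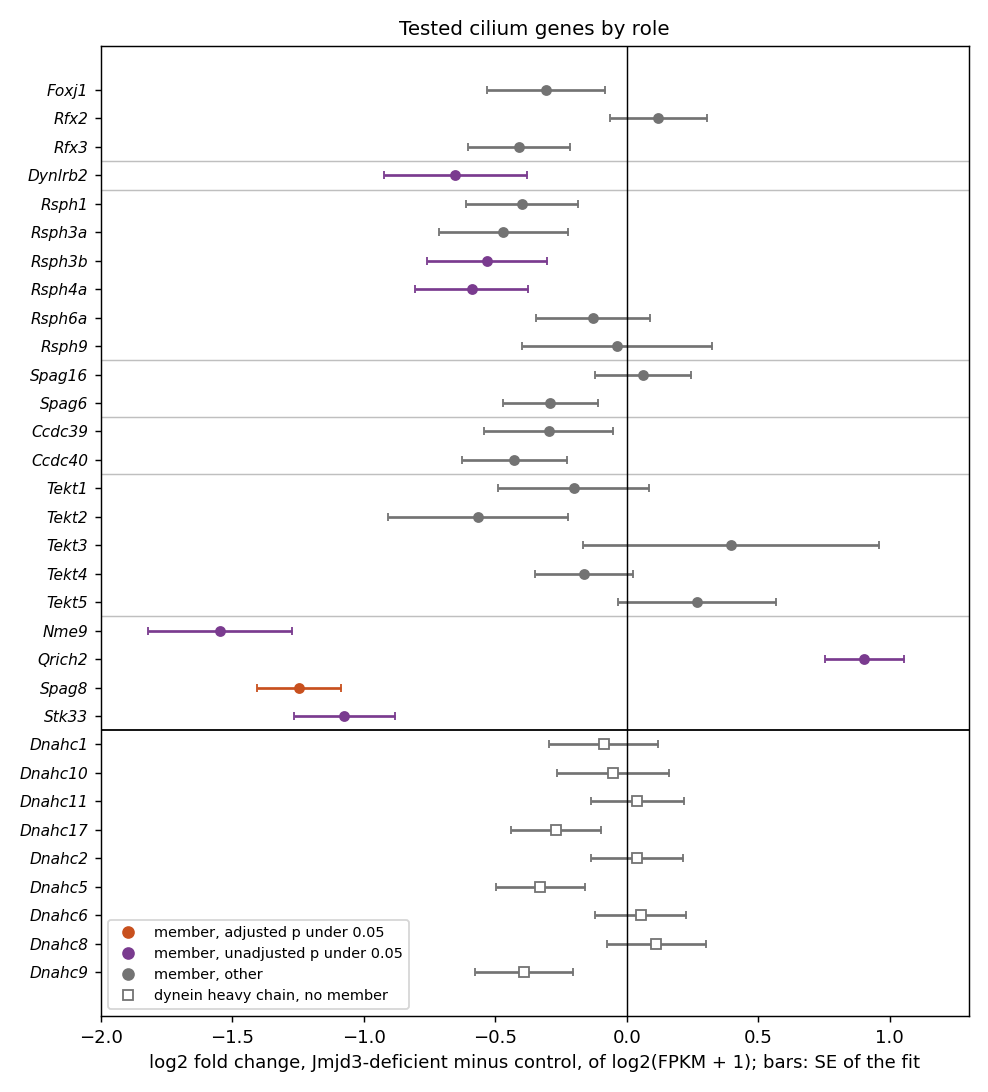
Log2 fold change between the groups, with its SE, on the log2(FPKM + 1) scale for the 23 tested members by role, and below the black line for the 9 tested dynein heavy chains, which are no members. Spag8 is the 1 member with an adjusted p under 0.05, and Qrich2 lies apart on the positive side at 0.90.

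Other cilium genes were read from lists written from general knowledge. Over all tested genes, 7.82% were lower and 6.81% higher at an unadjusted p under 0.05, to be set beside each count below. Of the 21 tested genes for dynein intermediate chains, docking and assembly factors, 0 passed (limma). At an unadjusted p under 0.05, 3 (14.3%) were lower and 0 higher. The median log2 fold change was -0.17, which turned to 0.13 among genes with a mean of 5 FPKM or more. Zmynd10, which helps to preassemble dynein arms, measured 8.42, 9.03 and 9.36 FPKM across the controls, against 2.23, 6.08 and 3.39 across the deficient mice, without overlap (log2 fold change -1.10, limma adjusted p = 0.152). Ttc25 and Ccdc114, of the docking complex of the outer arm, had log2 fold changes of -0.63 and -0.54 (limma adjusted p of 0.252 and 0.296). Of 37 tested markers of multiciliated cells 0 passed (limma). At an unadjusted p under 0.05, 3 (8.1%) were lower, near the share of all tested genes, and 0 were higher. Their median was -0.16, which was -0.016 under quantile normalization and 0.02 without cKO_262. Those with the smallest p were 1700026D08Rik (now Cfap161), 1700101E01Rik (now Cfap77) and the cadherin gene Cdhr3. They had log2 fold changes of -0.62, -1.24 and -0.63 and adjusted p of 0.200 to 0.331 (limma).

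The parts that motile cilia share with the primary cilium and with other cell functions gave other medians. Of 27 tested intraflagellar transport genes 0 passed (limma), 4 (14.8%) were higher and 0 lower at an unadjusted p under 0.05, and the median was 0.08. Ift43 measured 16.9 to 19.7 FPKM across the controls, against 26.2 to 36.1 across the deficient mice (log2 fold change 0.82, limma adjusted p = 0.121), and Wdr35, Ift27 and Hspb11 had log2 fold changes of 0.64, 0.69 and 0.67. The 9 BBSome genes had a median of 0.12 and the 9 cytoplasmic dynein genes of 0.10, and 0 of them passed (limma), with 0 and 1 at an unadjusted p under 0.05. Bbs9 and Bbip1 had the smallest p of the BBSome list (log2 fold changes of -0.28 and 0.44). Bbip1 was high in cKO_265, at 51.3 FPKM, against 20.6 and 29.3 in cKO_262 and cKO_263 and 21.2 to 25.6 across the controls. Dynlrb1 and the heavy chain gene Dync1h1 (0.28) had the smallest p of the cytoplasmic dynein list. A separate list held regulators of multiciliogenesis. Of the 15 tested 0 passed (limma), with 3 (20%) higher and 1 (6.7%) lower at an unadjusted p under 0.05. E2f4 measured 39.9 to 53.5 FPKM across the controls, against 70.9 to 96.8 across the deficient mice (log2 fold change 0.90, limma adjusted p = 0.118). E2f4, the cell cycle inhibitor gene Cdkn1a (0.71), geminin (Gmnn, 0.53) and the centriole kinase gene Plk4 (-0.66) also act in dividing cells (log2 fold changes in brackets). The median of the regulators was 0.09, with 9 of 15 above 0 and 6 below, and it was -0.07 without Con_253. Among those below 0 were Ccno, Foxn4 and Trp73, with log2 fold changes of -0.49, -0.51 and -0.35. Their adjusted p-values were 0.383, 0.418 and 0.393 (limma). Trp73, at a mean of 0.827 FPKM, was lower without overlap, while Ccno and Foxn4 overlapped between the groups.

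Sperm genes outside the axoneme were read the same way. Of 18 tested genes of the sperm flagellum and spermatids 0 passed (limma). At an unadjusted p under 0.05, 1 (5.6%) was higher and 0 were lower. The higher gene was the kinase gene Tssk3 (log2 fold change 1.03, limma adjusted p = 0.183). The protamine genes Prm2 and Prm1 came next, with log2 fold changes of -0.55 and -1.17 and adjusted p of 0.455 and 0.516 (limma), and Prm1 was highest in Con_261, at 25.4 FPKM, and lowest in cKO_262, at 1.121 FPKM. The median of the list was -0.12, and 0.0031 under quantile normalization.

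**Figure D4:**
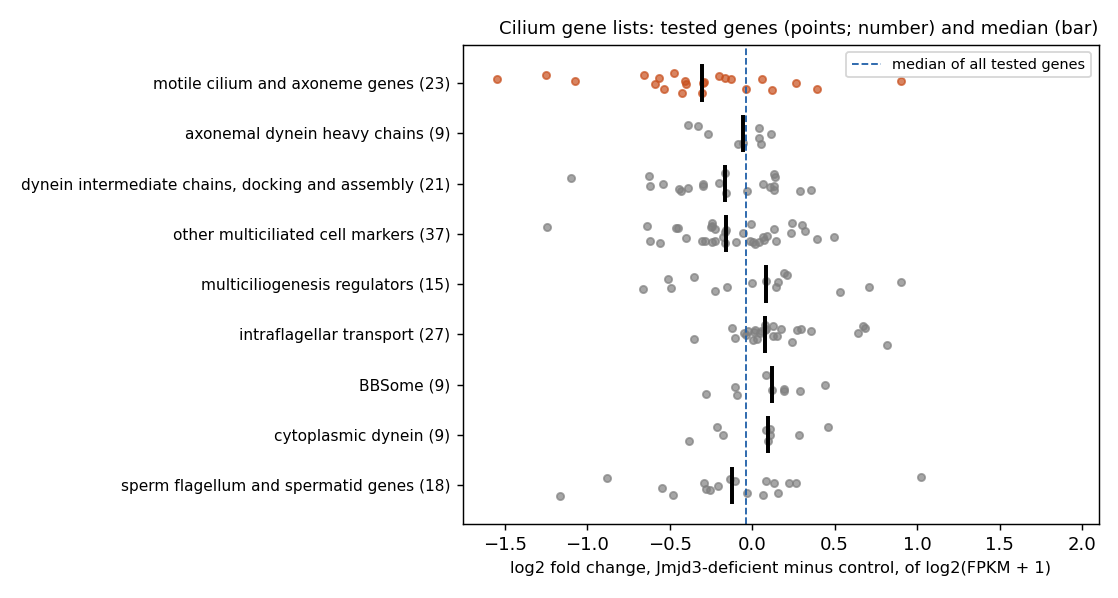
Log2 fold change of each tested gene (points) and the median (black bar) for the members and for 8 other lists, with the number tested in brackets; the dashed line is the median of all tested genes, -0.04. The bar of the members is at -0.31, those of dynein assembly and multiciliated markers are at -0.17 and -0.16 in this fit, and those of intraflagellar transport, the BBSome and cytoplasmic dynein are above 0.

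Some markers of other cells also differed between the groups. The 7 tuft-like mTEC markers, the marks of another peripheral cell type within mTECs, summed to 120 to 146 FPKM across the controls, against 39.5 to 52.6 across the deficient mice, and Rgs13, Avil and Plcb2 fell (log2 fold changes of -2.04, -1.58 and -1.70, limma adjusted p of 0.0113, 0.0139 and 0.0384). The 12 thymocyte markers summed to 45.1 to 74.0 FPKM and 32.3 to 41.4 FPKM. Of the 10 tested, 0 passed (limma) and 5 (50%, against 7.82% of all tested genes) were lower at an unadjusted p under 0.05. Cd3e and Cd3g had the smallest p (log2 fold changes of -1.06 and -0.80). The 5 endothelial markers summed to 7.17 to 7.52 FPKM and 4.77 to 5.27 FPKM (log2 fold change of Pecam1 -0.55). The 8 myeloid and dendritic markers summed to 352 to 399 FPKM and 274 to 306 FPKM. Most of that sum was Lyz2, at 324 to 362 FPKM and 242 to 275 FPKM (log2 fold change -0.40). Of the 6 tested, only Lyz2 had an unadjusted p under 0.05 (limma). Cd68 and Csf1r had log2 fold changes of -0.04 and -0.14. In all, 5 of the 6 were below 0 and 1, Flt3, above (0.22). None of these genes was at 0 in all libraries. All 4 parathyroid markers had log2 fold changes below 0 (median -0.39), as did 54.7% of all tested genes. Gcm2, Casr and Chga were lower in the deficient mice without overlap (75% of the 4, against 11.9% of all tested genes). The sum of the 4 overlapped through Pth, at 3.95 to 69.0 FPKM over the 6 libraries. B cell, fibroblast and cortical epithelial markers overlapped in their sums. The genes with the smallest p in these lists had log2 fold changes of -0.42 (Cd79a), -0.55 (Col1a1), 0.33 (Ccl25) and -0.56 (Casr), and 0 of them passed (limma). Col1a1 was lowest in cKO_265, at 1.45 FPKM, against 4.72 and 3.93 in cKO_262 and cKO_263 and 3.72 to 6.94 across the controls. The part of these cells in the cilium values was not tested.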

How the data were processed

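RNA of mTECs sorted from 3 control and 3 Jmjd3-deficient mice was sequenced after whole-transcriptome amplification, per the labels' protocols, and 1 table per library was deposited. Bowtie2 2.2.5, Cufflinks and the build mm10 were used, per the submitters' processing notes. The authors deposited FPKM (fragments per kilobase of transcript and per unit of mapped fragments). The annotation, strand and scaling between libraries are not given in the sources used here.

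Each table had 25025 rows, and rows of a symbol were summed. Left out were 44 rows whose symbols had become calendar dates. Genes whose mean reached 0.5 FPKM went into limma 3.58.1 (R 4.3.3) as log2(FPKM + 1) (eBayes with a mean-variance trend, 2-sided, Benjamini-Hochberg adjustment over 15720 genes, threshold 0.05). Fold changes on this scale understate the change of low genes, and no counting error can be given. P-values rest on the spread between 3 mice a group, moderated in limma towards the mean-variance trend of all tested genes.

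Members, lists and tests were chosen with earlier results of these data known. All 25 members are named. Values in every library are given for regulators, for members with an unadjusted p under 0.05 and for the most abundant member of each role. Of each other list the genes with the smallest p are named. Older symbols were matched through RefSeq synonyms where the loci overlapped. Sequences are from RefSeq (GRCm38.p6), positions from GENCODE M21. Alternatives were no filter, a filter at 5 FPKM, a pseudocount of 0.1, median centring, quantile normalization, arrayWeights of limma, the highest row of a symbol, and libraries left out.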

Additional observations from a re-analysis of the deposited data

How the results depend on the processing

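Tables without counts leave the depth unknown, so members near 0 FPKM cannot be given a detection limit. The number of members called was 1 and became 0 with a pseudocount of 0.1, a filter at 5 FPKM (7 members tested), quantile normalization, median centring or the highest row of a symbol, and 0 to 1 with libraries left out. With limma arrayWeights it was 8 (Nme9, Qrich2, Rsph3a, Rsph3b, Rsph4a, Spag8, Stk33 and Tekt5), where 3025 of all tested genes (19.2%) were called. Spag8 passed in 3 of 13 alternatives, with adjusted p from 0.00227 to 0.251. The cause of these shifts was not tested, apart from fewer genes or libraries where these were left out. Members higher at an unadjusted p under 0.05 numbered 1, 2 with arrayWeights and 1 to 3 with libraries left out, and lower members 6, 9 with arrayWeights, 2 with a filter at 5 FPKM and 3 (without Con_261) to 8 (without Con_253) with libraries left out. The median log2 fold change was -0.46 with a pseudocount of 0.1 and -0.44 to -0.27 with libraries left out. Medians of the other cilium lists turned in some refits, several of which are given beside them, except those of intraflagellar transport (0.01 to 0.19), the BBSome (0.05 to 0.20) and cytoplasmic dynein (0.02 to 0.18). The summed FPKM of the members differed by -25.1 (deficient minus control), and by -29.7 to -18.9 over the alternatives.

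Of the 23 tested members 18 kept their sign in every refit in which they were tested. Rsph9 turned under quantile normalization (0.016), median centring (0.042) and arrayWeights (0.36), and ranged from -0.27 to 0.61 with libraries left out. Tekt3 was at -0.12 with a pseudocount of 0.1 and -0.14 with arrayWeights, and Rfx2 at -0.16 with arrayWeights. Spag16 was at -0.011 with the highest row only and -0.029 to 0.18 with libraries left out, and Rsph6a at -0.28 to 0.072. No paired analysis was possible because the mice of the 2 groups share no number in the labels.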
